A study of Rattus norvegicus with 9 samples.

Results

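The genes of polyamine synthesis and breakdown were followed in prostates of rats with and without androgen-induced benign prostatic hyperplasia (BPH). Probes were taken whose RefSeq accession belongs to one of 10 rat genes: Odc1, Amd1, Srm and Sms, which make polyamines, Sat1, Smox and Paox, which break them down, and Oaz1, Oaz2 and Azin1, which set the amount of active ornithine decarboxylase. Of these 10 genes, 9 were matched by 13 of the 30356 probes. Paox has no probe and enters only the counts of motifs in start regions. The 3 groups of male Sprague Dawley rats, 6 weeks old at the start, each have 3 arrays of prostate RNA. Sham rats (sham) had a sham castration and received corn oil by injection and distilled water by mouth. Rats of the BPH group (BPH) were castrated and received dihydrotestosterone (3 mg/kg daily, subcutaneous) for 4 weeks and distilled water by mouth. Rats of the ghrelin group (BPH+ghrelin) had the same castration and dihydrotestosterone, and ghrelin by gavage (20 nmol/kg daily) during the last 2 weeks; this dose and route are those of the study's methods, and a figure legend of the study gives another dose and route. Thus BPH and BPH+ghrelin share castration and hormone, and BPH differs from sham in both at once. The study kept 8 rats per group, and which 3 of them were used for arrays is not stated. Per the study, the arrays of BPH and BPH+ghrelin are of separate rats; the labels number the samples and name no rat, and p-values measure the spread between these arrays.

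Polyamines are small positively charged molecules that bind nucleic acids and are needed for growth and translation. Putrescine is made from ornithine, and spermidine and spermine follow by stepwise addition of aminopropyl groups that come from S-adenosylmethionine. The prostate is known as one of the organs richest in polyamines and secretes spermine into semen, and its ornithine decarboxylase is known as an androgen-responsive enzyme. Much of the control in this pathway acts on translation and protein turnover, which arrays of mRNA do not measure.

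Start regions of 3 genes are shown first, because the levels of Odc1, Srm and Amd1 are described in most detail below. Each is the stretch of 250 bases before the annotated start, from RefSeq, in rat build GRCr8. Odc1 lies at chr6:46058415-46058664 (plus strand), Srm at chr5:164308752-164309001 (plus strand) and Amd1 at chr20:45265983-45266232 (minus strand). Capitals mark matches, on either strand, to the E-box with letters CACGTG, the TATA motif with letters TATAAA or the GC motif with letters GGGCGG.
Odc1: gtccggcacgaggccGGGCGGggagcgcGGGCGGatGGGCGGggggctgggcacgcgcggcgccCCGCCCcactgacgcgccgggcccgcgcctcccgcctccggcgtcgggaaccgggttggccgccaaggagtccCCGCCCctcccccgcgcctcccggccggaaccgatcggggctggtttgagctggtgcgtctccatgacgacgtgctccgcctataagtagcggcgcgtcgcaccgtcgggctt
Srm: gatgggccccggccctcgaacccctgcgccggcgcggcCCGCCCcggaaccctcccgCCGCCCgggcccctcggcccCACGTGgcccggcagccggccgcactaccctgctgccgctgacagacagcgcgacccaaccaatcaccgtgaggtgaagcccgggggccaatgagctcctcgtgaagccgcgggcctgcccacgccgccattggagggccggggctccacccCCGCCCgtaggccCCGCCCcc
Amd1: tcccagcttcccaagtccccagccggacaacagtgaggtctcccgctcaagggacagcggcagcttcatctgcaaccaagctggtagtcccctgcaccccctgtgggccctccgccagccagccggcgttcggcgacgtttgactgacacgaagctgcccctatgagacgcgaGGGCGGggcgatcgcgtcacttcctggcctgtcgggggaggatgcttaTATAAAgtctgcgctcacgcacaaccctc
The Srm stretch holds 1 E-box, 173 bases before the start, and 4 GC boxes. The Odc1 stretch holds 5 GC boxes and neither of the other 2 motifs in these letters. Amd1 has 1 TATA box 29 bases before the start and 1 GC box. No match of one motif overlapped a match of another in these 3 stretches. Among 33469 rat promoter stretches of the same length, 5.59% hold an E-box, 12.9% a TATA box and 30.5% a GC box. Of the 9 polyamine genes with such a stretch (Paox included, no entry for Azin1), 2 hold an E-box (Srm and Oaz1), 2 a TATA box (Amd1 and Oaz1) and 8 a GC box (not Smox). Letters of an androgen response half-site (AGAACA, 17.5% of all stretches) and of a cAMP response element (TGACGTCA, 1.59%) were found in 0 of the 9. These are matches of letters only.

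All values below are log2 signals after quantile normalization over the 9 arrays. A value 1 higher means a doubled signal, and levels of different probes are not compared as amounts of mRNA. All 13 probes were well above background on all 9 arrays, and 0 spots of the arrays were saturated. Before normalization, the middle probe of an array read 40.9 (sham replicate 2, the lowest) to 133 (BPH replicate 1, the highest). The dimmest array, sham replicate 2, had 61.4% of its probes well above background, and each other array had at least 69.48%. The prostate markers Pbsn, Hoxb13, Spdef and Scgb1d2 were well above background on all arrays. In each group 1 array lay between both others for most probes: sham replicate 3 for 74.0%, BPH replicate 2 for 71.6% and BPH+ghrelin replicate 2 for 69.2% of 21477 probes that were well above background on at least 5 arrays. Each of the other 6 arrays did so for 9.58% to 17.1%. For each of the 3 arrays in between this also held for 8 of 9 polyamine genes. The tests take the 3 arrays of a group as samples of separate rats; whether they are was not tested, and p-values are too small if they are not. Differences without the 3 arrays in between are given below for the polyamine genes and the called genes of the pathway. In whole prostate, fewer cells of a type and less RNA per cell cannot be told apart.

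Differences were tested with limma in 1 fit of all arrays, adjusted by the Benjamini-Hochberg method over all genes tested, and a call is an adjusted p under 0.05. An accession that matched no single gene symbol counts as a gene in these totals. In BPH compared to sham, 0 of 9 polyamine genes were called, where 4.33% of 19552 genes were called (2.15% higher, 2.18% lower). Of the 9, 4 had an unadjusted p under 0.05 (3 higher, 1 lower), compared to 26.5% of all genes. For 5 of 9, no BPH array lay within the sham range or the reverse (4 higher, 1 lower), compared to 31.3% of all genes (17.1% higher, 14.2% lower). The median log2 difference was 0.27 over the 9 genes and 0.04 over all genes, and with scaling to the 75th percentile 0.056 and -0.09. In BPH+ghrelin compared to BPH, 0 of 9 were called, where 1.48% of 19749 genes were called (0.496% higher, 0.987% lower). Here 2 had an unadjusted p under 0.05 (1 higher, 1 lower; 21.1% of all genes) and 4 did not overlap (2 higher, 2 lower; 39.2% of all genes, 19.8% higher and 19.3% lower), with a median of 0.15 compared to 0.02 (0.42 and 0.096 with scaling to the 75th percentile). In BPH+ghrelin compared to sham, 0 of 9 were called, where 6.3% of 19197 genes were called (3% higher, 3.3% lower). Here 4 had an unadjusted p under 0.05, all higher (23.7% of all genes), and 5 did not overlap, all higher (30.4% of all genes, 17.5% higher and 12.8% lower), with a median of 0.47 compared to 0.04. No gene of the 9 differed by 2-fold or more between any groups, while 3.53% of all genes were at least 2-fold higher and 4.63% lower in BPH than in sham, 2.9% higher and 3.2% lower in BPH+ghrelin than in BPH, and 3.21% higher and 4.2% lower in BPH+ghrelin than in sham. Thus 8 of 9 polyamine genes in BPH and 7 of 9 in BPH+ghrelin had a higher mean than in sham (53.7% and 54.4% of all genes), by less than 2-fold and without a call; scaling to the 75th percentile turned 3 of the 8 (Amd1, Srm and Oaz1). Without sham replicate 1, 3 of 9 were called in BPH against sham (Sms, Oaz2 and Azin1), and 1 without BPH replicate 1 (Azin1); all genes called were 3082 and 600 in these fits, compared to 847 with all arrays. In BPH+ghrelin against sham, 1 was called without sham replicate 2 (Amd1), where all genes called were 1921 compared to 1210. The smallest p of a two-sided exact permutation test with 3 arrays per group is 0.1. BPH+ghrelin shares the BPH arrays with one comparison and the sham arrays with another.

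**Figure D1:**
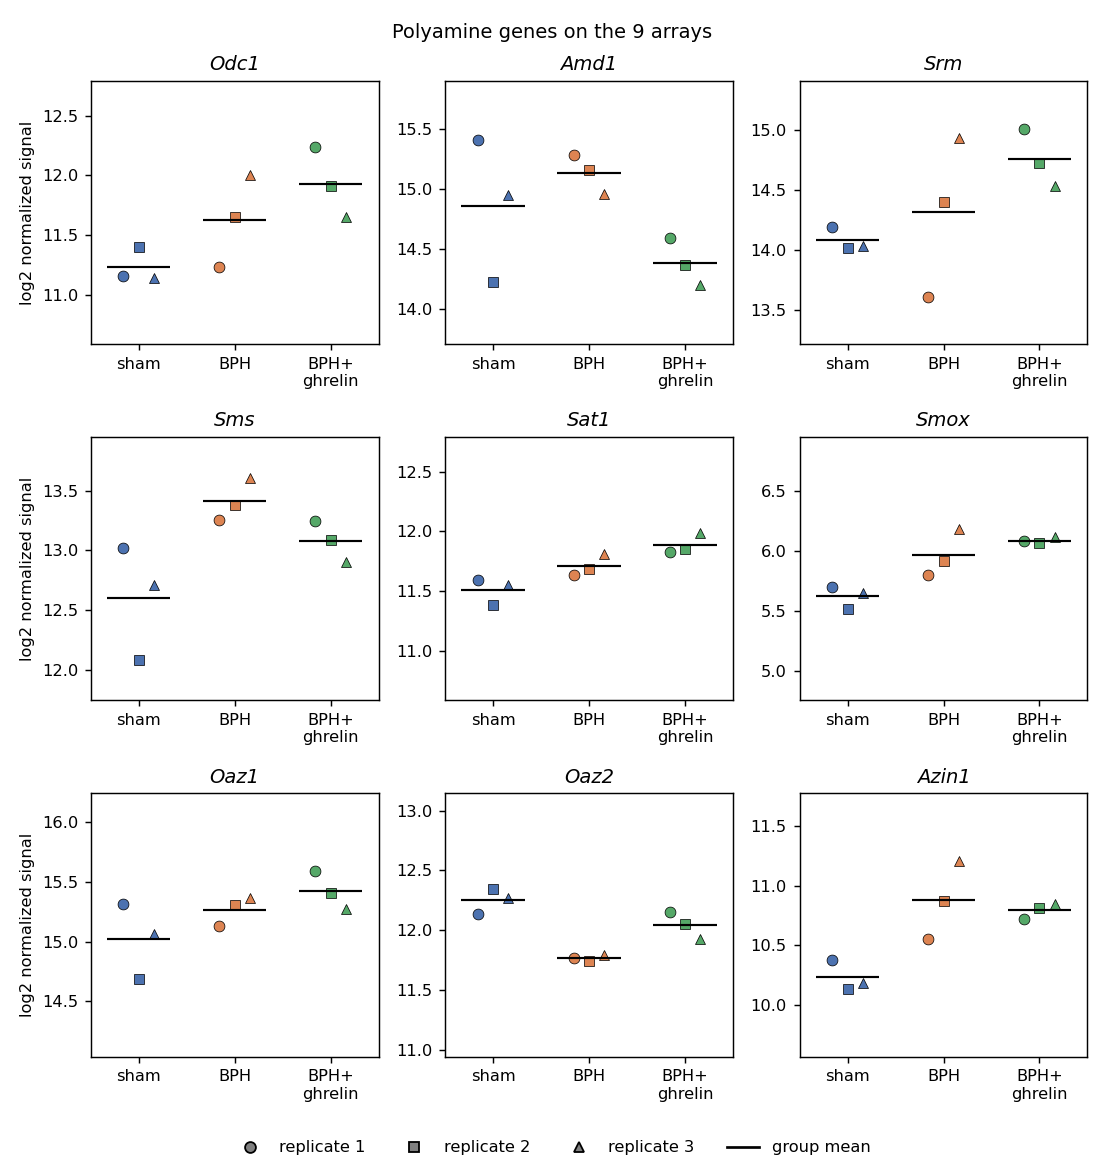
Normalized log2 signal of the 9 polyamine genes (vertical axis; each panel has its own range of equal height) on the 9 arrays, by group; points are arrays, with 1 shape per replicate number, and lines are group means. The 3 BPH+ghrelin arrays of Amd1 lie below the 3 BPH arrays, and the 3 BPH arrays of Oaz2 lie below the 3 sham arrays.

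Odc1, ornithine decarboxylase, makes putrescine and is regarded as the rate-limiting enzyme. Its log2 signal was 11.16, 11.40 and 11.14 in sham, 11.24, 11.65 and 12.00 in BPH, and 12.23, 11.91 and 11.65 in BPH+ghrelin. Group means were 11.23 ± 0.15 (sham), 11.63 ± 0.38 (BPH) and 11.93 ± 0.29 (BPH+ghrelin; SD, n = 3 each). All BPH+ghrelin arrays were above all sham arrays, whereas BPH overlapped with both other groups. The difference was 0.70 (SE 0.22) between BPH+ghrelin and sham, a 1.62-fold higher signal (95% interval of the log2 difference 0.18 to 1.21, unadjusted p = 0.0139, adjusted p = 0.106, limma). It was 0.40 (SE 0.22, adjusted p = 0.291) between BPH and sham and 0.30 (SE 0.22, adjusted p = 0.466) between BPH+ghrelin and BPH. Neither step differed beyond the spread between arrays. The second step was 0.53 with scaling to the 75th percentile (adjusted p = 0.195), 0.10 without BPH replicate 1, 0.49 without BPH replicate 3 and 0.15 without BPH+ghrelin replicate 1. The first step was 0.25 with that scaling, 0.60 without BPH replicate 1, 0.21 without BPH replicate 3 and -0.10 with slide (arrays of the same scan time) as a block. BPH and sham share no slide, so this last value runs through the BPH+ghrelin arrays. The same holds for the other values of BPH against sham with this block.

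Srm, spermidine synthase, adds an aminopropyl group to putrescine. Of its 2 probes, the one used read 14.19, 14.02 and 14.03 in sham, 13.61, 14.40 and 14.94 in BPH, and 15.02, 14.73 and 14.54 in BPH+ghrelin. The BPH arrays were the most spread of all (SD 0.67, compared to 0.09 in sham and 0.24 in BPH+ghrelin), with BPH replicate 1 below and BPH replicates 2 and 3 above all sham arrays. The second probe showed the same order of BPH arrays, with 10.65, 11.55 and 12.19. BPH+ghrelin arrays did not overlap with sham (difference 0.68, SE 0.30, 1.60-fold, unadjusted p = 0.0547, adjusted p = 0.220, limma), and the second probe gave 0.71. BPH and sham differed by 0.23 (SE 0.30, adjusted p = 0.640), which was -0.075 without BPH replicate 3, 0.59 without BPH replicate 1 and -0.17 both with scaling to the 75th percentile and with slide as a block. BPH+ghrelin and BPH differed by 0.44 (SE 0.30, adjusted p = 0.427), which was 0.093 without BPH replicate 1, 0.76 without BPH replicate 3 (adjusted p = 0.152) and 0.89 with scaling to the 75th percentile (adjusted p = 0.123).

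A list of 15 genes of proliferating cells (such as Cdk1, Ccnb1 and Rrm2), of which 12 had a probe, was summed on each array. The log2 of the summed signal was 12.38, 11.82 and 12.11 in sham, 11.93, 12.63 and 13.13 in BPH, and 14.19, 13.80 and 13.31 in BPH+ghrelin. All 12 had a higher mean in BPH+ghrelin than in sham (54.4% of all genes), and 6 of 12 were called (6.3% of all genes). Without the 3 arrays that lay in between, 2 of all genes were called in this comparison, so that most of these calls were lost. In BPH+ghrelin compared to BPH, 11 of 12 had a higher mean, 10 had an unadjusted p under 0.05 (21.1% of all genes) and 0 were called (1.48%). Of the 12, 11 were well above background on every sham array, and Aurkb was so on 0 of 3. The array with the highest sum was also the highest for Odc1 and Srm within BPH (replicate 3) and within BPH+ghrelin (replicate 1), and the lowest was the same for all 3 as well. The same arrays were highest and lowest for 7 of 9 polyamine genes in BPH and 6 of 9 in BPH+ghrelin. In sham, the sum was lowest in replicate 2, where Odc1 was highest. The part of proliferating cells in the levels of Odc1 and Srm was not tested.

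**Figure D2:**
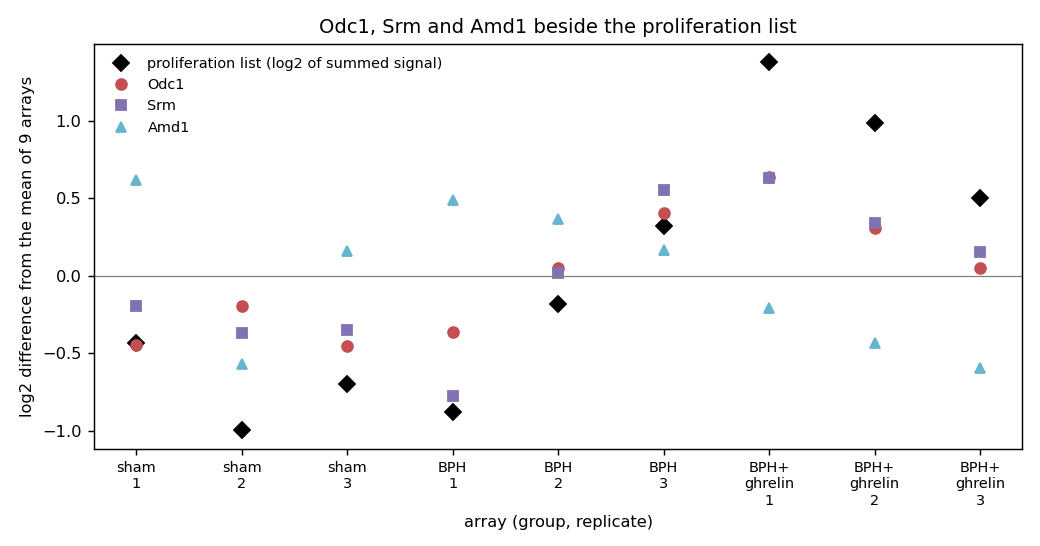
Log2 signal of Odc1, Srm and Amd1 and log2 of the summed signal of the proliferation list on each array, as the difference from its own mean over 9 arrays (vertical axis); each point is 1 array. In BPH, the lowest points of Odc1, Srm and the list are all on replicate 1 and the highest on replicate 3, an order that 7 of 9 polyamine genes had, and all 3 BPH+ghrelin points of Amd1 are below 0.

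Amd1, S-adenosylmethionine decarboxylase, makes the aminopropyl donor for spermidine and spermine. Its probe has several spots on each array, of which 8 to 10 were used, and the SD between spots was at most 0.073. The log2 signal was 15.41, 14.22 and 14.95 in sham, 15.28, 15.16 and 14.96 in BPH, and 14.59, 14.36 and 14.19 in BPH+ghrelin. All BPH+ghrelin arrays were below all BPH arrays, while sham replicate 2 lay among the BPH+ghrelin arrays and both other sham arrays lay near or above BPH. The spread in sham (SD 0.60) exceeded that in BPH (0.17) and BPH+ghrelin (0.20). Amd1 was lower in BPH+ghrelin than in BPH by 1.68-fold (log2 difference -0.75, SE 0.28, 95% interval -1.39 to -0.11, unadjusted p = 0.0271, adjusted p = 0.184, limma). With scaling to the 75th percentile the difference was -0.26 (adjusted p = 0.321), so its size depends on the normalization. It was -0.55 within slide 1 (1 against 3 arrays), and -0.72 with an adjusted p of 0.0355 when only the 6 arrays compared were normalized and fitted, a setting with 2101 of all genes called compared to 293. Compared to sham, Amd1 in BPH differed by 0.27 (SE 0.28, adjusted p = 0.550), which was 0.54 without sham replicate 1, -0.050 without sham replicate 2, -0.23 with scaling to the 75th percentile and 0.0071 with slide as a block. Amd1 in BPH+ghrelin differed from sham by -0.48 (SE 0.28, adjusted p = 0.341), which was -0.20 without sham replicate 1 (adjusted p = 0.593) and -0.79 without sham replicate 2 (adjusted p = 0.0419). The Amd1 means were 15.13 in BPH, 14.86 in sham and 14.38 in BPH+ghrelin, and the order of BPH and sham turned without sham replicate 2 and with the scaling. Markers of stroma also had lower means in BPH+ghrelin than in BPH, 8 of 8 for smooth muscle (1 called, median -0.52) and 7 of 8 for fibroblasts (2 called, median -0.57), where 1.48% of all genes were called. These 3 calls were lost without the 3 arrays that lay in between, and with slide as a block 2 of all genes were called. The log2 summed signal was 14.11 to 14.93 in sham, 14.14 to 15.07 in BPH and 14.07 to 14.21 in BPH+ghrelin for smooth muscle, and 13.68 to 14.57, 14.28 to 14.87 and 14.19 to 14.66 for fibroblasts. Within sham, both sums were lowest in replicate 2, as was Amd1, and within BPH both were highest in replicate 3, where Amd1 was lowest. Acta2, Des, Col1a1 and Dcn were well above background on all arrays. The part of stroma in the level of Amd1 was not tested.

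Sms, spermine synthase, adds the second aminopropyl group. Of 3 probes, the one used read 13.02, 12.08 and 12.71 in sham, 13.26, 13.38 and 13.61 in BPH, and 13.25, 13.08 and 12.90 in BPH+ghrelin. All BPH arrays were above all sham and all BPH+ghrelin arrays, and sham replicate 2 was the lowest array. Sms was 1.76-fold higher in BPH than in sham (log2 difference 0.81, SE 0.24, 95% interval 0.27 to 1.36, unadjusted p = 0.00865, adjusted p = 0.0873, limma), the widest difference among the 9 genes in any comparison with quantile normalization (0.57 with scaling to the 75th percentile). It was 1.03 with an adjusted p of 0.0279 without sham replicate 1 and 0.54 without sham replicate 2. The other 2 Sms probes gave 0.61 (adjusted p = 0.0501, over all probes) and 0.42 (adjusted p = 0.255). BPH+ghrelin and BPH differed by -0.34 (SE 0.24, adjusted p = 0.439), whereas the other probes gave -0.19 and 0.051, and scaling to the 75th percentile gave 0.030. BPH+ghrelin and sham differed by 0.47 (SE 0.24, adjusted p = 0.266), which was 0.69 without sham replicate 1 and 0.21 without sham replicate 2.

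Sat1, spermidine/spermine acetyltransferase, starts the breakdown and export of polyamines. It read 11.59, 11.39 and 11.55 in sham, 11.64, 11.68 and 11.81 in BPH, and 11.83, 11.85 and 11.99 in BPH+ghrelin, so that no group overlapped with another. The 9 arrays spanned 0.60, the narrowest range among the 9 genes (the widest was 1.52, in Sms). The signal of Sat1 in BPH+ghrelin was 1.30-fold that in sham (log2 difference 0.38, SE 0.12, 95% interval 0.11 to 0.65, unadjusted p = 0.0116, adjusted p = 0.0969, limma). Within slide 2 (2 against 2 arrays) it was 0.43. The steps from sham to BPH (0.20, SE 0.12, adjusted p = 0.310) and from BPH to BPH+ghrelin (0.18, SE 0.12, adjusted p = 0.408) were smaller and not beyond the spread by limma. With scaling to the 75th percentile, these steps were 0.056 and 0.42 (adjusted p = 0.786 and 0.0982), and the difference between BPH+ghrelin and sham was 0.48. With slide as a block, the first step was 0.31.

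Smox, spermine oxidase, turns spermine back into spermidine. It read 5.70, 5.52 and 5.65 in sham, 5.80, 5.92 and 6.19 in BPH, and 6.08, 6.06 and 6.12 in BPH+ghrelin. All arrays of both hormone-treated groups were above all sham arrays, and BPH overlapped with BPH+ghrelin. The signal of Smox in BPH+ghrelin was 1.38-fold that in sham (log2 difference 0.47, SE 0.13, unadjusted p = 0.00684, adjusted p = 0.0737, limma) and in BPH 1.27-fold that in sham (0.35, SE 0.13, unadjusted p = 0.0287, adjusted p = 0.148). With normexp background correction these differences were 0.17 and 0.16. Between BPH+ghrelin and BPH the difference was 0.12 (SE 0.13, adjusted p = 0.625), which was 0.017 with normexp, 0.062 with scaling to the 75th percentile, 0.037 without BPH replicate 1 and 0.23 without BPH replicate 3.

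Oaz1, the main antizyme, binds ornithine decarboxylase and directs it to the proteasome. It read 15.32, 14.69 and 15.06 in sham, 15.13, 15.31 and 15.36 in BPH, and 15.59, 15.40 and 15.27 in BPH+ghrelin, and each group overlapped with the others. The difference between BPH+ghrelin and sham was 0.40 (SE 0.18, unadjusted p = 0.0556, adjusted p = 0.221, limma), between BPH and sham 0.25 (SE 0.18, adjusted p = 0.399), and between BPH+ghrelin and BPH 0.15 (SE 0.18, adjusted p = 0.652). Scaling each array to its 75th percentile instead of quantiles changed the last value to 0.63 with an adjusted p of 0.0456, and the value between BPH and sham to -0.28. Between BPH and sham it was 0.39 without sham replicate 1, 0.078 without sham replicate 2 and 0.011 with slide as a block. Between BPH+ghrelin and sham it was 0.23 without sham replicate 2. Between BPH+ghrelin and BPH, leaving out BPH+ghrelin replicate 1 gave 0.068, BPH+ghrelin replicate 3 gave 0.23 and BPH replicate 1 gave 0.085.

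Oaz2, a second antizyme, was the gene with a lower level in BPH. The probe used read 12.14, 12.35 and 12.27 in sham, 11.77, 11.74 and 11.80 in BPH, and 12.15, 12.05 and 11.93 in BPH+ghrelin. The 3 BPH arrays agree within 0.054 and lay below all arrays of both other groups. Oaz2 was 1.40-fold lower in BPH than in sham (log2 difference -0.48, SE 0.12, 95% interval -0.75 to -0.22, unadjusted p = 0.00289, adjusted p = 0.0561, limma). Under 12 alternative settings its adjusted p ranged from 0.0173 to 0.713 and was under 0.05 in 3, among them the filter on all 6 arrays (0.0417). Without sham replicate 1 it was 0.0325. In BPH+ghrelin, this probe gave a 1.21-fold higher value than in BPH (0.28, SE 0.12, unadjusted p = 0.0432, adjusted p = 0.223; 0.52 with scaling to the 75th percentile), and it differed from sham by -0.21 (SE 0.11, adjusted p = 0.320; -0.13 with that scaling). The second Oaz2 probe went the other way, with 5.44, 4.94 and 5.51 in sham, 5.57, 5.60 and 5.70 in BPH, and 5.64, 5.47 and 5.24 in BPH+ghrelin. Its differences were 0.33 between BPH and sham and -0.17 between BPH+ghrelin and BPH, so that the mean of both probes gave -0.078 between BPH and sham, 0.051 between BPH+ghrelin and BPH and -0.026 between BPH+ghrelin and sham.

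Azin1, the antizyme inhibitor, resembles ornithine decarboxylase and binds antizyme in its place. It read 10.38, 10.13 and 10.19 in sham, 10.55, 10.87 and 11.21 in BPH, and 10.72, 10.81 and 10.84 in BPH+ghrelin. All arrays of both hormone-treated groups were above all sham arrays, and the narrow BPH+ghrelin group (SD 0.063) lay within the BPH group (SD 0.33). Azin1 was 1.56-fold higher in BPH than in sham (log2 difference 0.64, SE 0.17, 95% interval 0.25 to 1.04, unadjusted p = 0.00572, adjusted p = 0.0739, limma). This was 0.72 with an adjusted p of 0.0474 without sham replicate 1 and 0.81 with an adjusted p of 0.0448 without BPH replicate 1. In BPH+ghrelin it was 1.48-fold the signal in sham (0.56, SE 0.17, unadjusted p = 0.0114, adjusted p = 0.0962). Between BPH+ghrelin and BPH the difference was -0.083 (SE 0.17, 95% interval -0.48 to 0.32, adjusted p = 0.814), which was 0.083 with scaling to the 75th percentile, 0.082 without BPH replicate 3, -0.25 without BPH replicate 1 and -0.047 without BPH+ghrelin replicate 1.

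**Figure D3:**
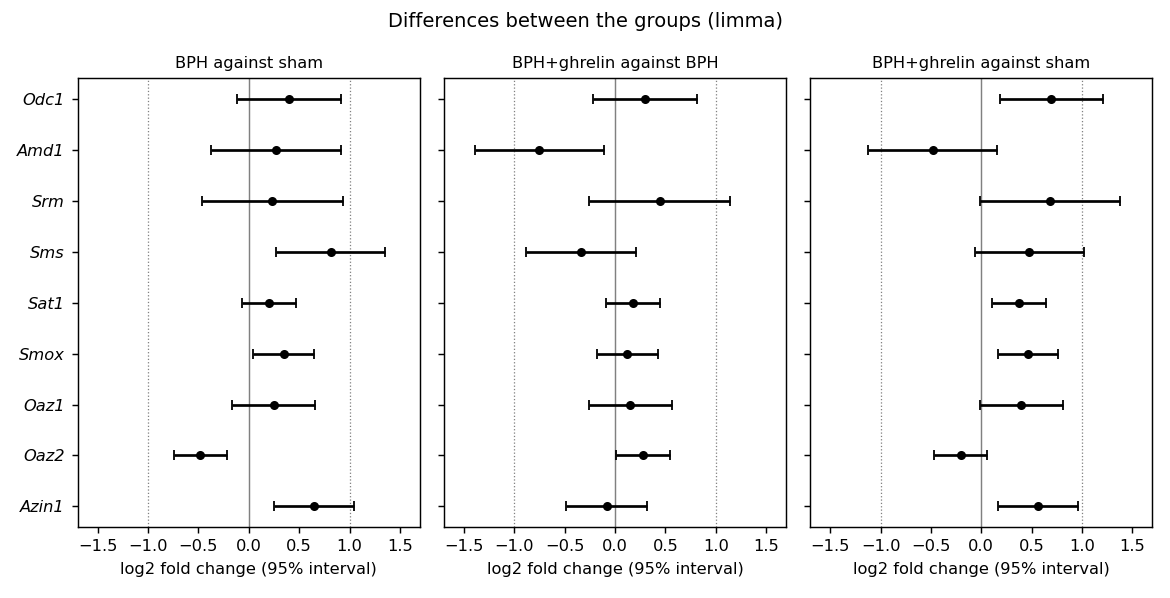
Log2 fold change (horizontal axis) with its 95% interval from limma for each polyamine gene in the 3 comparisons; dotted lines mark a 2-fold difference. Intervals leave out 0 for Sms, Smox, Oaz2 and Azin1 in BPH against sham, for Amd1 and Oaz2 in BPH+ghrelin against BPH, and for Odc1, Sat1, Smox and Azin1 in BPH+ghrelin against sham; none of these passed adjustment over all genes.

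Compared by role, the means of the synthesis genes did not all lie on one side. In BPH+ghrelin compared to BPH, Odc1 and Srm had higher means (0.30 and 0.44), and Amd1 and Sms lower means (-0.75 and -0.34), and with scaling to the 75th percentile those of Amd1 and Sms were -0.26 and 0.030. Both breakdown genes, Sat1 and Smox, had their highest means in BPH+ghrelin and their lowest in sham. Among the regulators, Oaz2 and Azin1 stood in opposite order in BPH and sham, with Oaz2 lower (-0.48) and Azin1 higher (0.64) in BPH; for Oaz2 this rests on 1 of 2 probes, the other giving 0.33 and the mean of both -0.078. Arrays of 1 group also differed in a shared way: in BPH, 7 of 9 genes were lowest in replicate 1 and highest in replicate 3, in BPH+ghrelin 6 of 9 were highest in replicate 1 and lowest in replicate 3, and in sham 7 of 9 were lowest in replicate 2, the dimmest array. Without the 3 arrays that lay in between, the differences between BPH and sham were 0.34 (Odc1), 0.88 (Sms), -0.46 (Oaz2) and 0.63 (Azin1), that of Amd1 between BPH+ghrelin and BPH was -0.74, and those of Odc1 and Sat1 between BPH+ghrelin and sham were 0.66 and 0.42. For Srm, Smox and Oaz1, the differences were 0.17, 0.39 and 0.25 between BPH and sham, 0.50, 0.11 and 0.18 between BPH+ghrelin and BPH, and 0.68, 0.49 and 0.43 between BPH+ghrelin and sham. With 2 arrays per group the adjusted p of the 9 genes ranged from 0.709 to 0.983 over the 3 comparisons.

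**Figure D4:**
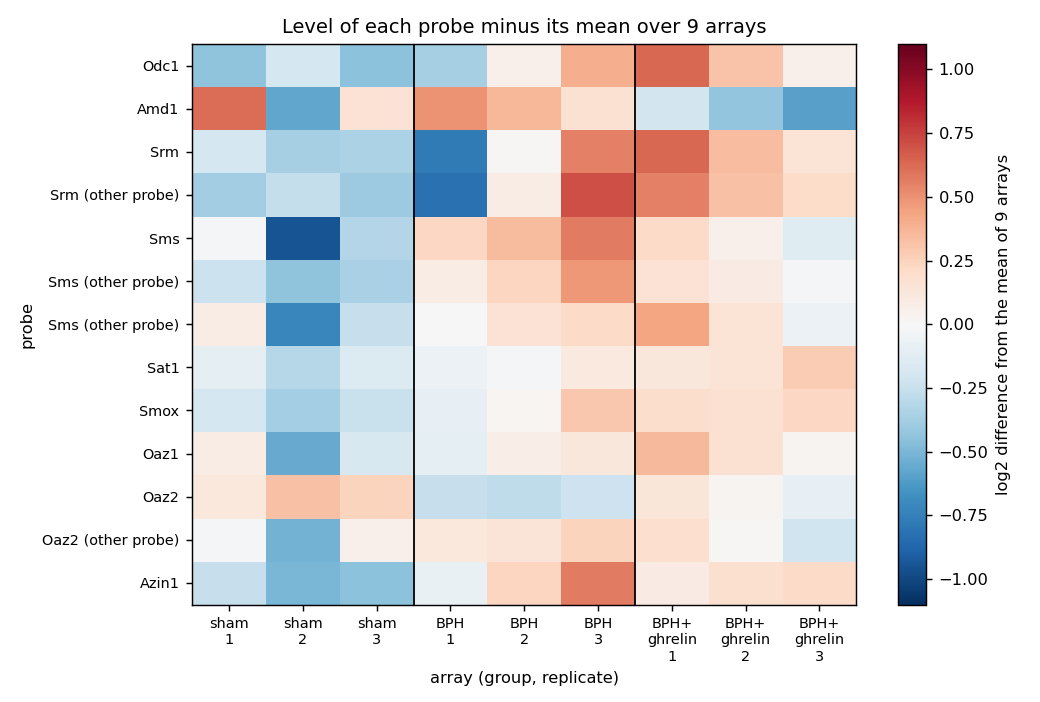
Log2 signal of each of the 13 probes (rows, by gene) on each array (columns), as the difference from the mean of that probe over the 9 arrays (colour scale, red higher, blue lower). Both Srm probes are lowest on BPH replicate 1, all 3 Sms probes are lowest on sham replicate 2, and the 2 Oaz2 probes differ in sign on BPH arrays.

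Slides limit these comparisons. Arrays with the same scan time were taken as 1 slide, and the sample labels name no slide. By scan time, BPH replicates 1 to 3 and BPH+ghrelin replicate 1 were on slide 1, BPH+ghrelin replicates 2 and 3 and sham replicates 1 and 2 on slide 2, and sham replicate 3 on slide 3. BPH and sham share no slide, so slide and group cannot be told apart within slides for that comparison. With slide as a block, their difference runs through the BPH+ghrelin arrays. Of these, replicate 1 alone shares a slide with BPH. Between BPH+ghrelin and BPH on slide 1 (1 against 3 arrays), the differences were 0.60 (Odc1), -0.55 (Amd1), 0.70 (Srm), -0.17 (Sms), 0.12 (Sat1), 0.11 (Smox), 0.32 (Oaz1), 0.38 (Oaz2) and -0.15 (Azin1). Between BPH+ghrelin and sham on slide 2 (2 against 2 arrays), they were 0.50 (Odc1), -0.54 (Amd1), 0.53 (Srm), 0.44 (Sms), 0.43 (Sat1), 0.48 (Smox), 0.33 (Oaz1), -0.25 (Oaz2) and 0.57 (Azin1). All 18 values had the sign of the value over all arrays, but they come from a part of the same arrays and are no separate support.

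Other genes around the pathway were taken from 6 lists with 46 genes reported here, covering ornithine and arginine supply, the methionine and S-adenosylmethionine cycle, hypusination, polyamine transport, other regulators and catabolic enzymes, and prostate proteins that bind polyamines. In BPH compared to sham, 2 of 34 genes tested were called (1 higher, 1 lower), and 10 of 34 had an unadjusted p under 0.05 (26.5% of all genes). In BPH+ghrelin compared to BPH, 1 of 34 was called (higher), and 7 had an unadjusted p under 0.05 (21.1% of all genes). In BPH+ghrelin compared to sham, 2 of 32 were called (both lower), and 7 had an unadjusted p under 0.05 (23.7% of all genes). The medians were 0.06, -0.03 and 0.17, and the shares of all genes called were 4.33%, 1.48% and 6.3%.

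In the supply list, 0 of 5 genes were called in each comparison, and 2, 1 and 1 had an unadjusted p under 0.05. Slc7a2, a transporter of arginine and ornithine, read 6.10, 6.39 and 6.40 in sham, 6.76, 7.56 and 8.12 in BPH, and 7.29, 7.41 and 7.57 in BPH+ghrelin, so that sham was below all arrays of both other groups. It had the largest difference of this list between BPH and sham (1.18, SE 0.30, 2.27-fold, adjusted p = 0.0663, limma) and between BPH+ghrelin and sham (1.13, SE 0.30, 2.19-fold, adjusted p = 0.0669). Agmat, agmatinase, which can make putrescine from agmatine, read 5.59, 5.68 and 5.46 in sham, 6.42, 6.01 and 5.55 in BPH, and 5.35, 5.12 and 4.97 in BPH+ghrelin. It had the largest difference of the list between BPH+ghrelin and BPH (-0.85, SE 0.22, adjusted p = 0.0952), with no overlap of these groups.

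Sat2, a relative of Sat1, was lower in both hormone-treated groups. It read 6.06, 6.23 and 5.98 in sham, 5.19, 4.93 and 4.82 in BPH, and 5.04, 4.77 and 4.56 in BPH+ghrelin, and sham did not overlap with the others. Sat2 fell 2.15-fold in BPH (log2 difference -1.11, SE 0.16, adjusted p = 0.0138) and 2.46-fold in BPH+ghrelin (-1.30, SE 0.16, adjusted p = 0.00520, limma) compared to sham. These were -0.46 and -0.51 with normexp background correction. The second call was kept in 6 of 6 fits without 1 array, and the first was lost without BPH replicate 2 (adjusted p = 0.0886), BPH replicate 3 (0.0515) or sham replicate 3 (0.0546). With slide as a block, the differences were -1.53 (adjusted p = 0.324) and -1.47 (adjusted p = 0.0517), and both calls were lost. They were also lost without the 3 arrays that lay in between (-1.14, adjusted p = 0.709, and -1.35, adjusted p = 0.430). In the same list, Aoc3, an amine oxidase, had the largest difference between BPH+ghrelin and BPH (-0.77, SE 0.26, adjusted p = 0.155).

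Slc3a2, the heavy chain of amino acid exchangers, which has also been linked to polyamine transport, rose in BPH. It read 9.74, 9.36 and 9.53 in sham, 10.21, 10.45 and 10.74 in BPH, and 10.01, 9.86 and 9.54 in BPH+ghrelin. BPH arrays were above all arrays of both other groups, with a 1.90-fold rise over sham (log2 difference 0.93, SE 0.19, adjusted p = 0.0380, limma) and a difference of -0.67 (SE 0.19, adjusted p = 0.114) between BPH+ghrelin and BPH. The call was lost without BPH replicate 2 (adjusted p = 0.157), BPH replicate 3 (0.102), sham replicate 2 (0.0606) or sham replicate 3 (0.129). It was also lost with slide as a block (0.60, adjusted p = 0.877), and BPH and sham share no slide, with the replicate number as a block (adjusted p = 0.0944), with no filter (0.0566), with the 6 arrays compared (0.102) and without the 3 arrays that lay in between (0.93, adjusted p = 0.709). Gpc1, glypican, a proteoglycan linked to polyamine uptake, differed by 0.82 between BPH+ghrelin and sham (SE 0.28, adjusted p = 0.120). Slc22a3, a transporter of organic cations, was not well above background on any BPH+ghrelin or sham array and read 2.63, 2.73 and 3.52 in BPH; BPH+ghrelin replicate 3 read 2.92 among these, so no fold is given (adjusted p = 0.200 between BPH+ghrelin and BPH).

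Bhmt, which remakes methionine from homocysteine, was higher in BPH+ghrelin than in BPH. It read 9.54, 9.71 and 9.64 in sham, 9.13, 9.20 and 9.26 in BPH, and 9.78, 9.77 and 9.80 in BPH+ghrelin, so that BPH arrays were the lowest. BPH and sham differed by -0.44 (SE 0.11, adjusted p = 0.0583, limma), and BPH+ghrelin and sham by 0.15 (SE 0.11, adjusted p = 0.429). The signal in BPH+ghrelin was 1.50-fold that in BPH (log2 difference 0.59, SE 0.11, adjusted p = 0.0430). The call was kept in 0 of 6 fits without 1 array, where its adjusted p ranged from 0.0514 (without BPH replicate 3) to 0.220 (without BPH replicate 2); it was 0.138 without BPH replicate 1, and 0.0945, 0.196 and 0.123 without BPH+ghrelin replicates 1, 2 and 3. It was 0.392 with slide as a block, 0.108 with the replicate number as a block, 0.0572 with no filter and 0.949 without the 3 arrays that lay in between (difference 0.60). Mat2a, which makes S-adenosylmethionine, had the largest difference of its list between BPH and sham (0.80, SE 0.32, adjusted p = 0.166), and Mat1a that between BPH+ghrelin and sham (0.48, SE 0.58, adjusted p = 0.668). Of the hypusination genes, through which spermidine modifies the translation factor encoded by Eif5a, 0 of 4, 0 of 4 and 0 of 3 were called. Eif5a differed by 0.48 between BPH+ghrelin and sham (SE 0.27, adjusted p = 0.325), and Dohh by 0.41 between BPH+ghrelin and BPH (SE 0.21, adjusted p = 0.309). Eif5a2 read 3.09 to 3.34 in BPH and was not well above background on any sham array; sham replicate 2 read 3.33 among the BPH arrays, so no fold is given (adjusted p = 0.435).

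**Figure D5:**
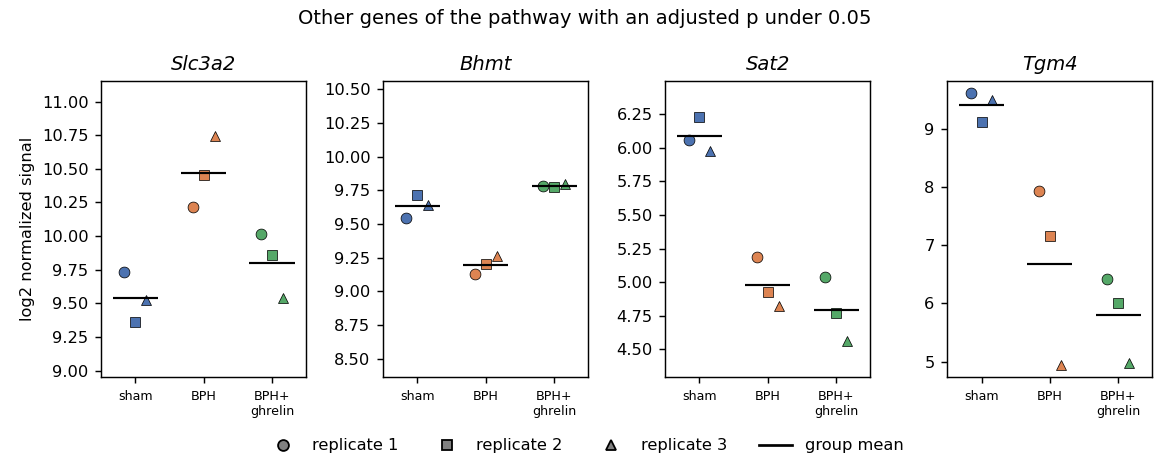
Normalized log2 signal (vertical axis; ranges differ between panels) of 4 other genes of the pathway that were called in a comparison, by group; points are arrays and lines are group means. Sat2 is between 4.56 and 5.19 on the BPH and BPH+ghrelin arrays and between 5.98 and 6.23 on the sham arrays.

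Tgm4, the prostate transglutaminase, which can use polyamines as substrates, had the largest difference among the tested genes of these 6 lists. It read 9.62, 9.13 and 9.49 in sham, 7.93, 7.15 and 4.93 in BPH, and 6.41, 6.01 and 4.97 in BPH+ghrelin, with no overlap between sham and the others. It fell 12.3-fold in BPH+ghrelin compared to sham (log2 difference -3.62, SE 0.71, adjusted p = 0.0261, limma), and the value for BPH compared to sham was -2.74 (SE 0.71, adjusted p = 0.0679). With normexp background correction the first was -2.54 (adjusted p = 0.0107). The call was lost without BPH+ghrelin replicate 1 (adjusted p = 0.0597), 2 (0.101) or 3 (0.0787) or sham replicate 3 (0.101), with slide as a block (0.191) and without the 3 arrays that lay in between (-3.69, adjusted p = 0.584). Of 7 genes of seminal vesicle and coagulating gland, 6 had a probe, and their log2 summed signal was 17.27, 16.46 and 17.16 in sham, 14.79, 13.92 and 9.48 in BPH, and 11.92, 11.22 and 9.09 in BPH+ghrelin; in BPH+ghrelin, Svs3b was not well above background on any array. The log2 summed signal of 13 genes of secretory epithelium, Tgm4 among them, was 18.74 to 18.87 in sham, 18.29 to 18.44 in BPH and 18.13 to 18.22 in BPH+ghrelin, with Folh1 well above background on 1 array. The part of these tissues in the level of Tgm4, or in that of the polyamine genes, was not tested. Of the other genes of this list, Tgm2 was not called in any comparison. Sbp read 17.22 to 17.40 on all arrays, among the brightest probes, to which quantile normalization gives nearly the same value on every array, so that its lack of a call says little; the same holds for Scgb1d2 (means 17.31, 17.35 and 17.38), the brightest gene of the secretory sum.

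Genes whose pattern over the 9 arrays was most like that of Odc1, Amd1 and Sat1 were searched among 11152 genes. Likeness was the root mean square difference of log2 signals after each gene was centred on its own mean. For Odc1 (SD over arrays 0.39), the nearest were Slc39a7 (0.087), Slc25a25 (0.090), Cib2 (0.091), Arl5a (0.091) and Atp5mc1 (0.091). For Amd1 (SD 0.46), those reported here were Clec9a (0.065), Ap4b1 (0.090), Rasl11b (0.11) and Abcc5 (0.11). For Sat1 (SD 0.18), they were Cbx8 (0.056), Rrp7a (0.059), Yif1a (0.063), Ercc1 (0.065) and Slc2a1 (0.067). Arrays of 1 group share their position on many probes, as given above, and this likeness is a description.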

How the data were processed

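Total RNA of rat prostates was labeled with Cy3 and hybridized to Agilent one-colour arrays. The authors deposited, for each array, the processed intensity of the scanner software (Feature Extraction 11.0.1.1), after background subtraction and without normalization between arrays, together with flags per spot. A matrix of log2 values deposited by the authors, quantile normalized in GeneSpring, was used as an alternative; its 9 columns each correlated best with the array of the same sample. Of 44254 spots per array, 42877 were left after removal of controls. Spots marked as outliers (313 to 741 per array) were removed, spots of a probe were averaged, and log2 signals of 30356 probes were quantile normalized over 9 arrays. The number of arrays limits the precision.

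Accessions were matched to RefSeq genes of GRCr8 for 17998 probes (15163 symbols); the array headers name another build (rn4), and no probe coordinates are given. A gene was tested when at least 3 of 6 arrays compared showed its probe well above background, and was represented by the passing probe with the highest mean. limma 3.58.1 in R 4.3.3 (3 group means, 9 arrays, eBayes) was used. Named genes were all polyamine genes, genes of the other lists that were called, otherwise the largest difference per list and comparison, and the 5 nearest patterns. Genes and lists were chosen with earlier results of these data known. In simulated data, 41%, 44% and 40% of 2-fold changes were called in BPH against sham, BPH+ghrelin against BPH and BPH+ghrelin against sham. The simulation changed 200 genes and gave each gene independent noise. Some genes of the lists and 1 near pattern are not reported here. Motifs were searched as exact letters on both strands.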

Additional observations from a re-analysis of the deposited data

How the results depend on the processing

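Over all alternatives, 486 fits of the polyamine genes had a test, of which 476 kept the direction and 11 had an adjusted p under 0.05. With scaling to the 75th percentile, values turned to -0.23 (Amd1), -0.17 (Srm) and -0.28 (Oaz1) in BPH against sham and to 0.030 (Sms) and 0.083 (Azin1) in BPH+ghrelin against BPH; this scaling moved the median of all genes in BPH against sham from 0.04 to -0.09 and the share of calls that were higher from 49.7% to 32.0% (from 33.4% to 47.2% in BPH+ghrelin against BPH, and from 47.6% to 38.9% in BPH+ghrelin against sham). With slide as a block, Odc1 was -0.10 and Srm -0.17 in BPH against sham, values that run through the BPH+ghrelin arrays. The count of polyamine genes called, 0 in each comparison, was 1 with that scaling (Oaz1) and with the 6 arrays compared (Amd1) in BPH+ghrelin against BPH, 1 with normexp, with a filter on all 6 arrays and with trend and robust eBayes (Oaz2 each) in BPH against sham, and 1 with normexp (Sat1) in BPH+ghrelin against sham. Without 1 array, it was 0 to 3, 0 to 0 and 0 to 1, and differences were -0.050 to 0.54 (Amd1) and -0.075 to 0.59 (Srm) in BPH against sham and -0.25 to 0.082 (Azin1) in BPH+ghrelin against BPH.

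The other genes of the pathway called in BPH against sham (2) were 6 with normexp, 4 with the filter on all 6 arrays and with trend and robust eBayes, 3 with scaling to the 75th percentile, with the mean of the probes or with probes in place of genes, 1 with the 6 arrays compared, 0 with slide as a block or without the 3 arrays in between, 4 by 2-fold alone, and 0 to 4 without 1 array. In BPH+ghrelin against BPH (1), they were 0 with no filter, with slide as a block or without the arrays in between, 2 by 2-fold alone, and 0 to 1 without 1 array. In BPH+ghrelin against sham (2), they were 0 with slide as a block or without the arrays in between, 3 by 2-fold alone or with normexp or the 6 arrays compared, and 1 to 4 without 1 array. Leaving out the 3 arrays in between was chosen after seeing the data. All genes called (847, 293 and 1210) ranged from 119 to 3082, 3 to 400 and 224 to 1921 without 1 array, and from 2 to 1067, 0 to 2101 and 2 to 1327 under the other settings. The sources do not say whether replicate numbers pair the rats, and deviations of same-numbered arrays correlated from -0.15 to 0.30. With the replicate number as a block, 0 polyamine genes were called in each comparison, 1, 0 and 2 other genes of the pathway, and 243, 17 and 461 of all genes. For normexp the median signal was used, since the files hold no mean signal. In simulated data most 2-fold changes were missed, and smaller ones were not simulated. Arrays of 1 group share their position on many probes, which the simulation left out, so its shares may not hold for these arrays.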
